A study of Mus musculus with 32 samples.

Results

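In cultures of mouse marrow stroma after osteogenic differentiation, 1837 of 18338 cells with little *Ibsp* and little *Tyrobp* (10.0%) carried at least 4 of 6 proliferation markers and are called cycling cells, so the members were chosen by measured UMI counts. The 6 markers were *Mki67*, *Top2a*, *Cdk1*, *Birc5*, *Ccna2* and *Cenpf*, and a marker counted as detected with at least 1 unique molecular identifier (UMI), the tag that marks 1 captured mRNA molecule. The 18338 cells were drawn from 107853 droplet barcodes of 1 sequencing run. They had at least 5000 UMIs, of which mitochondrial genes gave at most 10%, between 400 and 6200 genes, fewer than 2 UMIs of the myeloid gene *Tyrobp* per 10000 UMIs, and less than 1% of UMIs from *Ibsp*, the bone sialoprotein gene of mature osteoblasts. They were set beside 11296 cells (61.6%) that passed the same limits and had none of the 6 markers, called marker-free cells.

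The study measured single-cell RNA-seq (scRNA-seq) of BMSC-OBs, which are stromal cells grown out of bone marrow and kept in osteogenic medium. The donors were 77 Diversity Outbred (DO) mice, an outbred population in which each animal has a genotype of its own, and marrow came from the femurs. Cells grew to confluence for 3 days and then differentiated for 10 days. Cells of 4 or 5 mice were combined into each of 16 pools, and each pool was sequenced in 2 runs. Every pool received the same culture, so there was no treated and untreated group, and the comparisons were made between kinds of cell inside each pool. The ages of the mice were not given in the sources used here. The deposited files do not assign cells to mice, so the pool was the replicate and the spread between mice inside a pool was not measured.

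A dividing cell copies its DNA in S phase and separates the copies in mitosis after a gap called G2. Genes for S phase are switched on largely through E2F transcription factors. Genes for G2 and mitosis are controlled through the DREAM and MuvB complexes, which bind a promoter element called CHR and often act with NF-Y at CCAAT boxes. In marrow, stromal progenitors can divide before they become osteoblasts or adipocyte-like support cells, and mature osteoblasts divide little.

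The pools held 3460 to 9429 barcodes and 53990642 to 100777353 UMIs each in the run used. The 16 pools contributed between 29 cycling cells (pool 13) and 402 (pool 2). The second run of the same libraries gave 1844 cycling cells, and 1645 were cycling in both runs, which is 89.5% of the first run and 89.2% of the second. No cycling barcode occurred in more than 1 pool, although 3061 barcodes (2.84%) did among all barcodes. Pool 2 stood apart with the most cycling cells, and white blood cell genes were found most often in the cycling cells of pools 6, 8, 14, 18 and 5.

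Most cycling cells carried stroma markers, and some carried leukocyte genes. Free RNA in droplets also gives such UMIs, and the myeloid gene *Lyz2* was detected in 64.8% of cycling and 51.5% of marker-free cells, or 29.3% and 29.2% after thinning to 5000 UMIs. Of the 1837 cycling cells, 1717 (93.5%) carried at least 3 of 8 stroma markers (*Col1a1*, *Col1a2*, *Col3a1*, *Pdgfrb*, *Lum*, *Dcn*, *Serpinf1* and *Mmp2*), beside 10568 marker-free cells (93.6%). At least 3 of 8 leukocyte genes (*Ptprc*, *Laptm5*, *Cd52*, *Coro1a*, *Fcer1g*, *Cd53*, *Rac2* and *Lcp1*) were found in 318 cycling cells (17.3%) and in 816 marker-free cells (7.22%). Of the 318, 114 lacked the stroma markers and 204 carried both sets. The share of such cells among cycling cells was lowest in pool 4, at 4.40%, and highest in pools 6, 8, 14, 18 and 5, at 56.4%, 46.2%, 34.1%, 31.0% and 28.1%.

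The summed level of the 8 leukocyte genes ran from 0.298 to 10.4 UMIs per 10000 UMIs over the pools in cycling cells, with a median of 1.33, and from 0.685 to 2.77 with a median of 1.09 in marker-free cells. The summed stroma markers ran from 37.4 to 89.7 (median 72.4) in cycling cells and from 34.0 to 96.4 (median 70.1) in marker-free cells. At least 3 T cell markers were present in 117 cycling cells (6.37%) and 82 marker-free cells (0.726%), and at least 3 myeloid precursor markers in 58 and 20. B cell markers went the other way, with 7 cycling and 193 marker-free cells. Results were therefore also computed in stroma-marked cells, the 1513 cycling cells (82.4%) and 10076 marker-free cells (89.2%) with at least 3 stroma and fewer than 3 leukocyte markers. Droplets with *Xist* and Y chromosome transcripts together, which hold RNA of both sexes, made up 15 cycling cells (0.817%) and 46 marker-free cells (0.407%), and no doublet caller was run.

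The share of cycling cells varied between pools. It was 9.58% ± 4.28 (SD, n = 16 pools), with a lowest share of 5.81% in pool 7, a median of 8.42% and a highest share of 23.8% in pool 2 (95% exact binomial interval 21.8% to 25.9%, counting error only). Pool 2 lay well above every other pool, of which the next was at 12.7%. Without pool 2 the share was 8.63% ± 2.05 (SD, n = 15). In stroma-marked cells it was 8.79% ± 4.80.

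**Figure D1:**
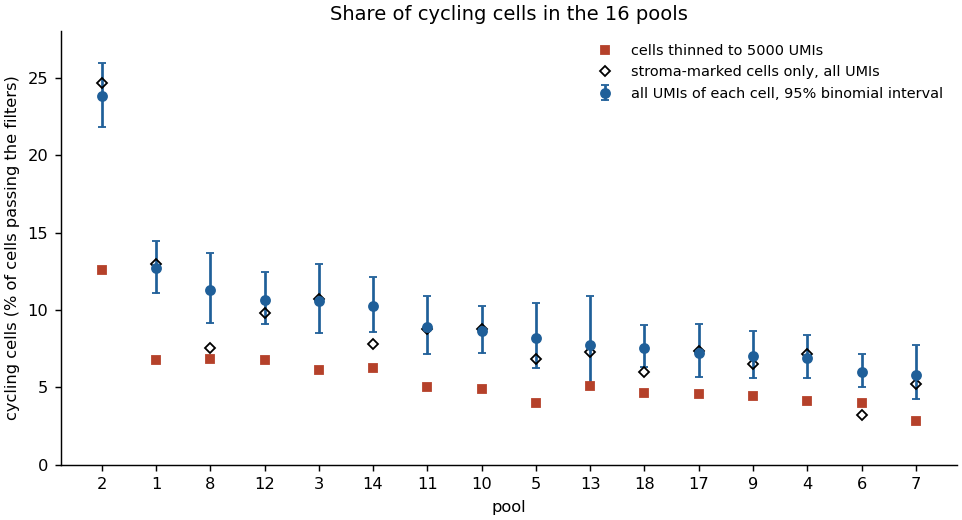
Share of cycling cells in each of the 16 pools, in percent of the cells passing the limits (blue circles with 95% binomial intervals), after thinning each cell to 5000 UMIs (red squares), and in percent of the stroma-marked cells (open diamonds). Pool 2 is highest in all 3 series, and pools 6 and 8 drop most when only stroma-marked cells are counted.

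The share was higher among deeper droplets. It was 3.18% of cells with 5000 to 7500 UMIs and 22.7% of cells with at least 30000 UMIs. After every cell was thinned to 5000 UMIs, the share was 5.55% ± 2.20, and pool 2 was still the highest. Across the 16 pools, the share had Pearson's r = 0.32 and Spearman's rho = 0.353 with the median UMIs of the cells, and r = 0.195 without the 2 pools farthest from the median depth, given as a description because a rule on detected markers favours deep droplets.

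Cycling cells took a larger share of the *Ibsp*-low cells than of the *Ibsp*-high cells of the same cultures, the osteoblast-like cells that passed the other limits. After thinning to 5000 UMIs, 5.55% of *Ibsp*-low and 2.58% of *Ibsp*-high cells were cycling, a difference of 2.97 percentage points ± 1.46 (SD, n = 16), higher in 16 of 16 pools. The difference was smallest in pool 2 (12.6% and 12.1%) and pool 1 (6.75% and 6.05%), the pools with the most cycling cells. Without thinning, the shares were 9.58% and 5.44% (4.13 points, 14 of 16 pools). The markers and *Ibsp* both belong to the rule, so these shares are a description, and leukocyte-marked cells were not removed from them. Proliferation was still present past the *Ibsp* limit, where 1555 of 30438 cells were cycling. Across the 16 pools, the share of *Ibsp*-high cells and the cycling share had r = -0.26 and rho = -0.032, again as a description, and r = -0.0099 without pool 2.

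The 6 markers chose the cells, so their values are a description. *Birc5*, which encodes the survivin subunit of the chromosomal passenger complex, was detected in 98.3% of cycling cells. *Ccna2* (cyclin A2) was detected in 91.1%, *Cdk1*, the kinase that starts mitosis, in 90.4%, and *Top2a*, the topoisomerase that untangles sister DNA, in 89.5%. *Mki67*, which coats mitotic chromosomes, was detected in 88.9%. *Cenpf*, a kinetochore protein of late G2 and mitosis, was the least frequent at 76.6%, and it was also the marker most often missing from the 518 cells with exactly 5 (224 cells, 43.2%), while *Birc5* was missing from 7 (1.35%).

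In counts per 1000000 summed UMIs (CPM) over the cycling cells of a pool, *Birc5* reached 392 ± 51.5 (SD, n = 16), *Top2a* 377 ± 79.4, *Cdk1* 302 ± 51.4, *Mki67* 238 ± 71.3, *Cenpf* 229 ± 80.3 and *Ccna2* 184 ± 25.6. *Cenpf* varied most between pools, from 97.4 to 364 CPM with a median of 241. Each captured molecule gives 1 UMI at the 3′ end of its transcript in these libraries, so CPM was not divided by gene length.

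The number of markers split the cells unevenly. All 6 were found in 980 cells, 5 in 518 and 4 in 339, and just outside the threshold 340 cells had 3 markers, 893 had 2 and 3972 had 1. The count was thus lowest at 3 and 4 markers and rose again to 6. Median depth was 12221 UMIs with no marker, 18850.5 with 3, 17953 with 4 and 23098 with 6. A single marker was *Cdk1* in 1919 of the 3972 cells (48.3%).

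Phase genes rose along the same axis. UMIs of a list of 42 S phase genes were 4.76 per 10000 UMIs in marker-free cells, 16.6 with 3 markers, 23.9 with 4, 30.5 with 5 and 31.2 with 6. UMIs of 43 G2 and mitosis genes were 6.80, 17.2, 30.0, 41.7 and 67.0. The S phase list levelled off between 5 and 6 markers while the G2 and mitosis list did not. Of the 340 cells with 3 markers, 89 (26.2%) held at least the median S phase level of cycling cells, beside 13 marker-free cells (0.115%). Some cells with that level thus lie just outside the threshold.

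**Figure D2:**
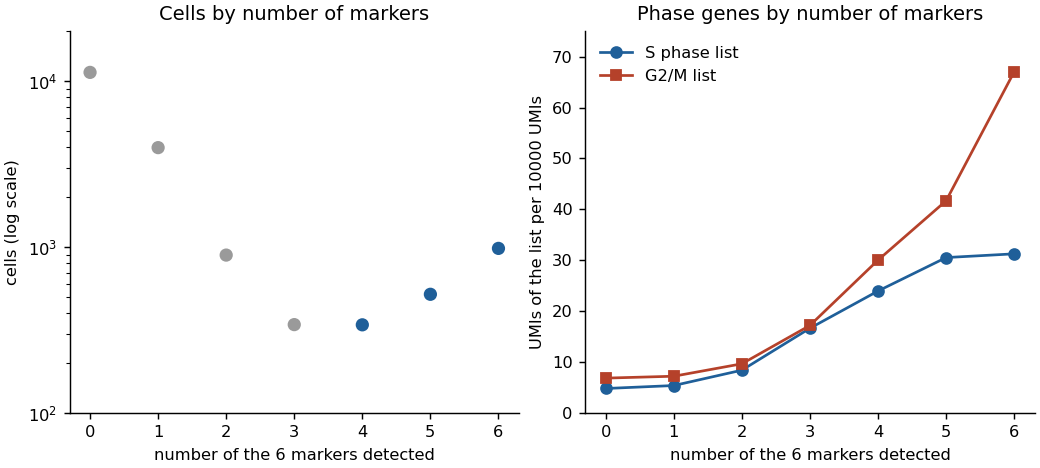
Left, the number of cells by how many of the 6 markers were detected (log axis, cycling cells in blue), and right, UMIs of the S phase and G2/M lists per 10000 UMIs in those cells. The cell count is lowest at 3 and 4 markers, and the G2/M list climbs to 67.0 per 10000 UMIs with 6 markers while the S phase list stays at 31.2.

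The promoters of marker and replication genes are printed to show which elements stand in the 2 arms of the programme, mitosis and replication. RefSeq promoters of GRCm38.p6, from 250 bases before to 50 bases after the start site, were searched on both strands for the CHR letters TTTGAA, for CCAAT, and for 4 E2F words (TTTCCCGC, TTTGGCGC, TTTCGCGC and TTTGCCGC). Among all 32851 promoters, 17.9% held CHR letters, 37.4% CCAAT, 6.95% both and 2.26% an E2F word. Of the 6 markers, 5 were matched. The windows below run 5′ to 3′ on the strand of the gene, with the matched letters of either strand in capitals, and a pair of E2F words overlap on opposite strands in *Mcm5* and in *Mcm6*, which has a further E2F word apart from that pair. They lie at chr7:135716330-135716629 (*Mki67*, minus strand), chr11:99024140-99024439 (*Top2a*, minus), chr10:69352863-69353162 (*Cdk1*, minus), chr1:189688037-189688336 (*Cenpf*, minus), chr8:75109259-75109558 (*Mcm5*, plus) and chr1:128359656-128359955 (*Mcm6*, minus).
Mki67: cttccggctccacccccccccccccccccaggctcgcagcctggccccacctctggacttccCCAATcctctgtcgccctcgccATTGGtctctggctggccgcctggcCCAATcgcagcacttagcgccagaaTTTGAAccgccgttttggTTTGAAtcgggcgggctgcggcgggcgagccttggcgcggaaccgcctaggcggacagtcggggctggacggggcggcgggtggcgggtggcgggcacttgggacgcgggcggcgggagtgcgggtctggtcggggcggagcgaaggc
Top2a: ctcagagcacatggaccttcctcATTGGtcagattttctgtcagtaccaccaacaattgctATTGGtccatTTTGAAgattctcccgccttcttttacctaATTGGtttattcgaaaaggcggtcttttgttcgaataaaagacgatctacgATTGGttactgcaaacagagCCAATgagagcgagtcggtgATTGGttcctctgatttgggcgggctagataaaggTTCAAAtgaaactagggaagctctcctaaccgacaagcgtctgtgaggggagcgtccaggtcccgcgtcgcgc
Cdk1: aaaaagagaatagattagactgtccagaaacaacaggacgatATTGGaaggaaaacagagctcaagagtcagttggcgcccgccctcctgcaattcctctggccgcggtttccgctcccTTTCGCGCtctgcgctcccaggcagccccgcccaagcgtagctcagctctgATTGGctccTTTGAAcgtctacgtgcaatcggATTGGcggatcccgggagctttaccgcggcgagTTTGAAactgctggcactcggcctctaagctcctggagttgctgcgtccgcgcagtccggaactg
Cenpf: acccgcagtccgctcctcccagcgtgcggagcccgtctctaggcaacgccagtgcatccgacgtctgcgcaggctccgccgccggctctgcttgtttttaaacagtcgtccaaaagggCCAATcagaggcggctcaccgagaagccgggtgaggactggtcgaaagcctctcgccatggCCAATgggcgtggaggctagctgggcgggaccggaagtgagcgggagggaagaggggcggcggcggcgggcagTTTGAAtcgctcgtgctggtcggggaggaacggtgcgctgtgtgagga
Mcm5: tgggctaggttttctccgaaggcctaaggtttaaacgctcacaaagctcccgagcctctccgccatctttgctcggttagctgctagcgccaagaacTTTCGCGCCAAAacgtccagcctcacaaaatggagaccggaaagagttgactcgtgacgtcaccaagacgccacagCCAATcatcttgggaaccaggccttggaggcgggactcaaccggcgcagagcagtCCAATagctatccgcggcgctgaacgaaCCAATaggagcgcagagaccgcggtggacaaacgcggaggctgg
Mcm6: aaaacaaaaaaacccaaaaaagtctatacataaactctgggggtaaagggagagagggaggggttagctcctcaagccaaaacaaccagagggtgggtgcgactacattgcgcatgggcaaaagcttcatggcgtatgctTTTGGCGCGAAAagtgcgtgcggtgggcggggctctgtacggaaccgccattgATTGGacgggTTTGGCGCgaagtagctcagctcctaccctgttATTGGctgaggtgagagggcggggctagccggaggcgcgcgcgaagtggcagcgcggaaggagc

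*Mki67*, *Top2a*, *Cdk1* and *Cenpf* each held CHR letters and CCAAT in these windows, and *Cdk1* also held an E2F word. The *Birc5* window held none of the searched letters. The windows of *Mcm5* and *Mcm6*, subunits of the replicative helicase, held CCAAT and E2F words and no CHR letters. For spindle and kinesin genes, 28 promoters of 26 of the 30 listed genes were matched, with CHR letters in 22 (78.6%) and an E2F word in 2 (7.14%). For origin licensing genes, 16 promoters of 14 of 19 were matched, with CHR letters in 6 (37.5%) and an E2F word in 8. Replication fork genes had an E2F word in 11 of 31 promoters (35.5%) and CHR letters in 3 (9.68%). CCAAT did not separate the spindle from the licensing promoters, at 64.3% and 68.8%, and it stood in 45.2% of the fork promoters. A match of letters is a description and shows no binding.

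The rest of the cell cycle programme moved with the 6 markers and is given as a description, since the rule chose cells by genes of the same programme. All 19 licensing genes had higher levels in cycling cells, with a median log2 fold change of 2.99 in sums per pool. *Mcm5* stood at 74.6 CPM ± 22.4 in cycling and 3.21 ± 1.83 in marker-free cells, and *Cdc6*, which loads the helicase, at 22.6 ± 10.2 and 0.924 ± 0.342. The 29 fork genes had a median of 2.48, led by *Pclaf*, a partner of the sliding clamp, at 498 CPM ± 76.2 and 4.92 ± 1.88. Among 15 nucleotide genes the median was 0.97, and thymidine kinase *Tk1* was the highest at 6.06.

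Mitotic genes differed most. The medians were 5.75 for 30 spindle and kinesin genes, 5.39 for 16 mitotic kinases and subunits of the anaphase-promoting complex, and 5.38 for 22 kinetochore and checkpoint genes. *Hmmr*, a spindle assembly factor, had a log2 fold change of 7.89, and *Ube2c*, the ubiquitin-conjugating enzyme of that complex, stood at 521 CPM ± 129 and 5.11 ± 1.61. *Tpx2*, a microtubule factor that activates Aurora A and that the study follows, ran from 121 to 256 CPM over the pools in cycling cells (median 196) and from 1.19 to 6.40 in marker-free cells (median 3.55). The groups of pools did not overlap for *Tpx2*, and its log2 fold change was 5.74 ± 0.11 (SE).

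A few genes of the cycle lists went against the rest. *Ccnd2*, a D-type cyclin of G1, stood at 145 CPM ± 47.0 in cycling and 297 ± 71.9 in marker-free cells, lower in 16 of 16 pools. *Ccnd1*, the other D-type cyclin of stroma, had 384 ± 151 and 386 ± 153 CPM. The histone transcripts *Hist1h2bc* (-1.18) and *Hist1h1c* (-0.70) also had negative log2 fold changes, whereas the median of 13 histone genes was 1.96.

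Outside the cell cycle lists, cycling and marker-free cells were compared in sums per pool with edgeR and the pool as a block (16 pools, 11762 genes tested). A gene was called with an adjusted p of at most 0.05 and a log2 fold change of at least 0.5 in size. The call was met by 1486 genes higher in cycling cells (12.6% of all tested) and 1627 lower (13.8%), so each list is read against these shares. The adjusted p alone was met by 60.2%. Among stroma-marked cells the calls were 11.9% higher and 13.2% lower, and among those of 10000 to 20000 UMIs 12.0% and 9.02%. The median log2 fold change of all genes was -0.04. With library totals in place of the TMM scaling it was -0.16, and the share of called genes that were higher went from 47.7% to 32.4%. Cycling cells had 1.65 ± 0.248 times the UMIs of marker-free cells (SD, n = 16), which was not matched in this comparison, so values from stroma-marked cells of 10000 to 20000 UMIs, called matched depth, are given where they end a call. That fit holds 469 cycling and 3386 marker-free cells of the 11 pools with at least 20 cells of each kind. Matched depth means a narrowed range and not equal depth. Among all cells of 10000 to 20000 UMIs, cycling cells still had 1.10 times the UMIs of marker-free cells, higher in 13 of 13 pools.

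Of 17 adipogenic lineage genes tested, 16 were lower and 0 higher in cycling cells, beside the 13.8% of all genes, and the median log2 fold change was -1.35. *Adipoq*, which encodes the hormone adiponectin, ran from 19.1 to 255 CPM (median 120) in cycling cells and from 309 to 824 (median 550) in marker-free cells. The groups of pools did not overlap, as for 0.740% of all genes in this direction, and the log2 fold change was -2.18 ± 0.22 (SE, edgeR adjusted p = 1.92e-08). *Lpl*, the lipoprotein lipase, ran from 89.1 to 624 CPM (median 321) and from 740 to 1910 (median 1095), also without overlap (-1.88 ± 0.18, adjusted p = 1.05e-08).

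*Plin1*, which coats lipid droplets (-2.51 ± 0.30), *Fabp4*, a fatty acid carrier (-1.57 ± 0.13), and *Cebpa*, a transcription factor of fat cells (-1.35), were lower as well. The same list holds genes of marrow support cells. *Cxcl12*, the chemokine that retains blood stem cells, had 1402 CPM ± 629 in cycling and 4072 ± 1714 in marker-free cells, and it was lower in 15 of 16 pools (-1.54 ± 0.22). *Lepr*, the leptin receptor, differed by -1.56 ± 0.25, *Kitl*, the stem cell factor, by -0.95, and *Ebf1* by -0.66. In stroma-marked cells 15 of the 17 genes stayed lower. In stroma-marked cells of 10000 to 20000 UMIs 9 of 17 did, with *Adipoq* at -1.11 and *Cxcl12* at -0.63, while *Lepr* (-0.28, adjusted p = 0.283), *Kitl* (-0.19) and *Ebf1* (-0.06) no longer met the call.

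Among genes with a mean of at least 50 CPM outside the cell cycle lists, the largest fall was that of *Cfd* (ENSMUSG00000061780), which encodes the complement protease adipsin made by fat cells. It ran from 0 to 16.01 CPM with a median of 0.772 in cycling cells and from 63.4 to 707 with a median of 243 in marker-free cells. The groups did not overlap, and the log2 fold change was -6.75 ± 0.27 (edgeR adjusted p = 1.47e-15, lower in 16 of 16 pools). It was -6.94 in stroma-marked cells of matched depth and -7.34 without pool 6. *Scd1*, the fatty acid desaturase (-2.62 ± 0.17), went the same way without overlap of the pools, at 75.9 CPM ± 33.8 and 481 ± 186. *Car3* (-2.22) was also among the 10 largest.

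**Figure D3:**
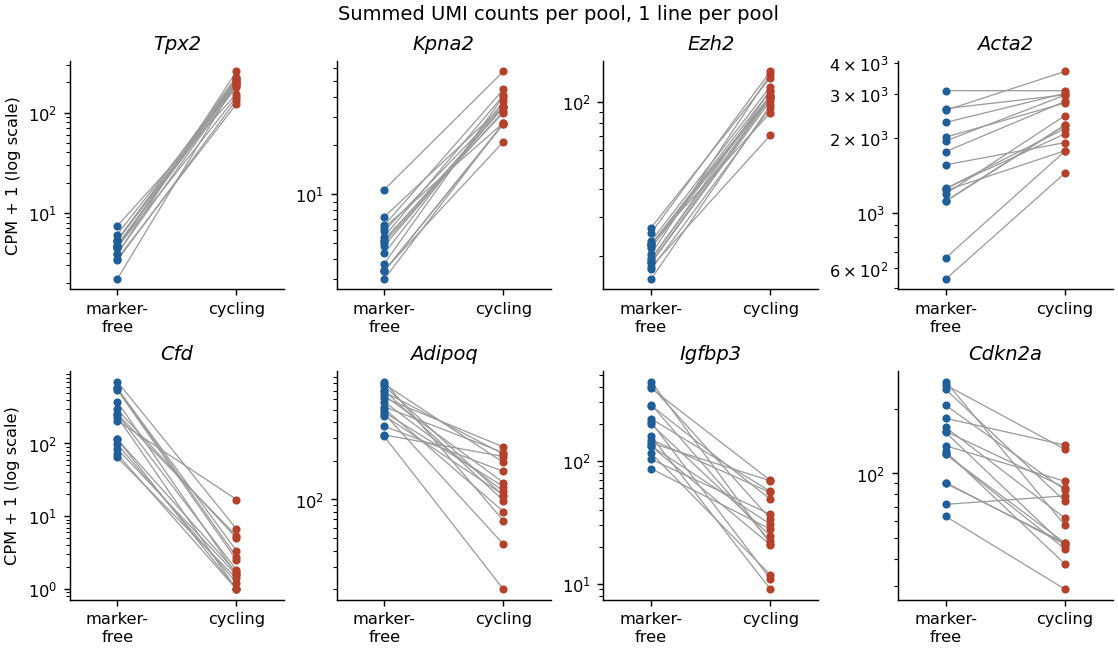
CPM + 1 of 8 genes (log axis) in the marker-free and the cycling cells of each pool, with 1 line per pool. *Tpx2*, *Kpna2* and *Ezh2* rise from marker-free to cycling cells in 16 of 16 pools and *Acta2* in 15, and *Cfd*, *Adipoq* and *Igfbp3* fall in 16 of 16 and *Cdkn2a* in 15, with *Cfd* at 0 to 16.01 CPM in cycling cells.

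Of 6 insulin-like growth factor (IGF) binding proteins, which hold IGFs outside the cell, 4 were lower. Of 10 genes of the IGF axis tested, 5 were lower and 0 higher, with a median of -0.55. *Igfbp3* ran from 8.02 to 68.0 CPM (median 28.1) in cycling cells and from 85.0 to 438 (median 177) in marker-free cells, so the pools did not overlap (-2.63 ± 0.23, edgeR adjusted p = 2.74e-09). *Igfbp5* (-1.98 ± 0.21), *Igfbp2* (-1.18) and *Igfbp4* (-0.99 ± 0.17) followed, whereas *Igfbp6* (0.48), *Igfbp7* (-0.088) and the receptors *Igf1r* (0.03) and *Igf2r* (-0.15) were not called. The growth factor *Igf1* itself was lower (-0.67). At matched depth in stroma-marked cells, *Igfbp3* was at -1.69 and *Igfbp4* at -0.26, the latter not called.

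Inhibitors of cyclin-dependent kinases split by member. Of 15 inhibitors and p53 targets tested, 3 were higher and 6 lower, with a median of -0.42. *Cdkn2a*, which encodes the senescence-linked p16 and p19ARF, ran from 28.03 to 134 CPM (median 58.8) in cycling and from 62.2 to 266 (median 144) in marker-free cells. The ranges overlapped, and the gene was lower in 15 of 16 pools (-1.15 ± 0.12, edgeR adjusted p = 6.08e-08). Its neighbour *Cdkn2b* (p15) was lower in 16 of 16 pools (-1.02 ± 0.12), at 35.2 CPM ± 10.6 and 73.3 ± 25.2. At matched depth in stroma-marked cells the differences were -1.41 and -1.75.

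The other inhibitors of the same family were higher. *Cdkn2c* (p18) had 64.5 CPM ± 10.0 in cycling and 27.8 ± 6.40 in marker-free cells (1.27 ± 0.09), and *Cdkn2d* (p19) had 97.4 ± 22.7 and 22.9 ± 6.42 (2.14 ± 0.08), each without overlap of the pools. The pools fail to overlap in the higher direction for 4.43% of all genes. *Cdkn2d* also differed between cycling cells of different phase (below), and the rule chose cells by the cycle. The rises of *Cdkn2c* and *Cdkn2d* are therefore a description. *Cdkn1c* (p57) was lower (-1.51 ± 0.28) but not called at matched depth in stroma-marked cells (-0.35). *Cdkn1a* (p21), at 435 ± 113 and 545 ± 104 CPM, had a log2 fold change of -0.31, under the size needed for a call. The p53 targets *Trp53inp1* (-0.88) and *Btg2* (-0.76) were lower, and *Trp53* itself was called higher at 0.52, a call lost without pool 1. At matched depth in stroma-marked cells, 2 of the 15 inhibitors and p53 targets were called higher and 5 lower.

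Splicing and nuclear transport was the only list in which every tested member was higher, apart from the cell cycle lists and short lists of blood cell markers. All 16 of 16 met the call, beside 12.6% of all genes, and all 16 did so in stroma-marked cells and at matched depth. *Kpna2*, an importin that carries proteins into the nucleus, ran from 20.1 to 56.05 CPM (median 33.3) in cycling and from 2.00 to 9.66 (median 4.11) in marker-free cells. The pools did not overlap (3.04 ± 0.10). *Kpna2* also differed between cycling cells of different phase (below), and the rule chose cells by the cycle, so its rise is a description. How far the rule sets the rest of this list was not tested. *Ran*, the GTPase that drives the transport and helps build the spindle, had 1179 CPM ± 158 and 430 ± 88.9 (1.5 ± 0.06), *Nup37*, a pore component, differed by 1.61 and *Ranbp1* by 1.39.

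Growth genes were higher in part. Of 16 ribosome assembly genes 9 were higher and 0 lower, with *Npm1*, the nucleolar chaperone, at 0.87 ± 0.07 and *Dkc1* at 0.86. Of 15 cholesterol synthesis genes 8 were higher and 0 lower, led by *Idi1* (1.10 ± 0.10), *Fdps* (1.06 ± 0.09) and *Cyp51* (0.93). In stroma-marked cells of matched depth the counts were 6 of 16 and 5 of 15, beside 12.0% of all genes. Of 16 glycolysis genes 5 were higher, among them *Pgk1* (0.70) and *Pkm* (0.69), and *Ldhb* was lower (-0.60), but none met the call at matched depth in stroma-marked cells. Of 20 respiratory chain genes only 1 was higher, cytochrome c (*Cycs*, 0.79 ± 0.05), less than the 12.6% of all genes.

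The extracellular matrix showed small differences in its collagens and larger ones in its proteoglycans. Of 19 collagen and matrix genes tested, 0 were higher and 2 lower. *Col1a1* had 2723 CPM ± 864 in cycling and 2439.6 ± 932 in marker-free cells (0.23), and *Col1a2* differed by 0.21, with the sign turned at 10000 to 20000 UMIs (-0.10 and -0.14). *Thbs2*, a matricellular protein, was lower (-0.73 ± 0.09). Of 8 small proteoglycans, *Ogn* (-1.7 ± 0.09), *Aspn* (-1.15 ± 0.11) and *Omd* (-0.75, not called at matched depth) were lower, and *Lum* was called higher (0.69) but lost the call without any of 8 single pools (2, 3, 4, 6, 8, 11, 12 and 14) and had the other sign at 10000 to 20000 UMIs (-0.66). *Ogn* had 258 CPM ± 48.6 and 867 ± 227 without overlap of the pools.

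Among 12 contractile genes *Acta2*, the smooth muscle actin of activated stroma, was the only call. It ran from 1444 to 3691 CPM (median 2355) in cycling and from 543 to 3093 (median 1407) in marker-free cells. The ranges overlapped widely, but *Acta2* was higher in 15 of 16 pools (0.72 ± 0.09, edgeR adjusted p = 7.83e-07). It was also called in stroma-marked cells (0.83) and at matched depth among them (0.52), and not among all cells of 10000 to 20000 UMIs.

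The osteoblast list divided, and the *Ibsp* limit restricts what it can show. Of 16 genes tested, 0 were higher and 5 lower, with a median of -0.25. The lower ones were *Mmp13*, a matrix protease (-1.06 ± 0.12), *Phex*, a regulator of phosphate (-1.14), the osteocalcin genes *Bglap* (-0.72) and *Bglap2*, which share near-identical sequence, and *Kcnk2*. After thinning to 5000 UMIs, *Bglap* was detected in 51.2% of cycling and 46.3% of marker-free cells, and *Bglap2* in 31.6% and 26.1%. *Mmp13*, *Phex* and *Kcnk2* were detected in a smaller share of cycling cells. At matched depth in stroma-marked cells 1 of 15 was lower (*Mmp13*, -0.52) and 1 higher (*Smpd3*, 0.93), and *Phex* (-0.56), *Bglap* (-0.28), *Bglap2* (-0.46) and *Kcnk2* (0.11) were not called. Of 7 osteocyte genes tested 0 were higher and 2 lower, *Phex* again and *Dmp1* (-1.59 ± 0.21, 12.8 CPM ± 9.76 and 40.8 ± 35.7). After thinning, *Dmp1* was detected in 5.17% of cycling and 5.51% of marker-free cells. At 10000 to 20000 UMIs 5 of 6 osteocyte genes were lower, and at matched depth in stroma-marked cells 3 of 6 were. The master regulators *Runx2* (-0.26) and *Sp7* (0.01) and the early enzyme *Alpl* (0.23) did not reach the call.

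Among 20 stromal transcription factors 1 was higher (*Twist2*, 0.52, a call lost without pool 10, 11 or 17 and at matched depth) and 4 lower, with *Id4* at -1.07 ± 0.15 (-0.46 and not called at matched depth) and *Atf3*, a stress factor, at -0.83 ± 0.10. In stroma-marked cells 1 factor was higher and 2 were lower, beside 11.9% and 13.2% of all genes. Among 12 growth factor receptors 0 were higher and 5 lower, including *Tgfbr3*, the betaglycan co-receptor (-1.05 ± 0.13), *Fgfrl1*, an FGF receptor without a kinase that the study also follows (-0.75), and *Egfr* (-0.65). None of the 12 receptors met the call in stroma-marked cells of matched depth, and 3 did in stroma-marked cells of any depth. Of 8 CCN and YAP target genes 2 were higher, namely *Ankrd1* (0.85) and *Axl* (0.51, a call lost without pool 1, 7 or 9), and 2 were lower, the CCN proteins *Nov* (-1.19) and *Wisp2* (-0.70). At matched depth *Axl* was not called (0.20) and *Ankrd1* was not tested.

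**Figure D4:**
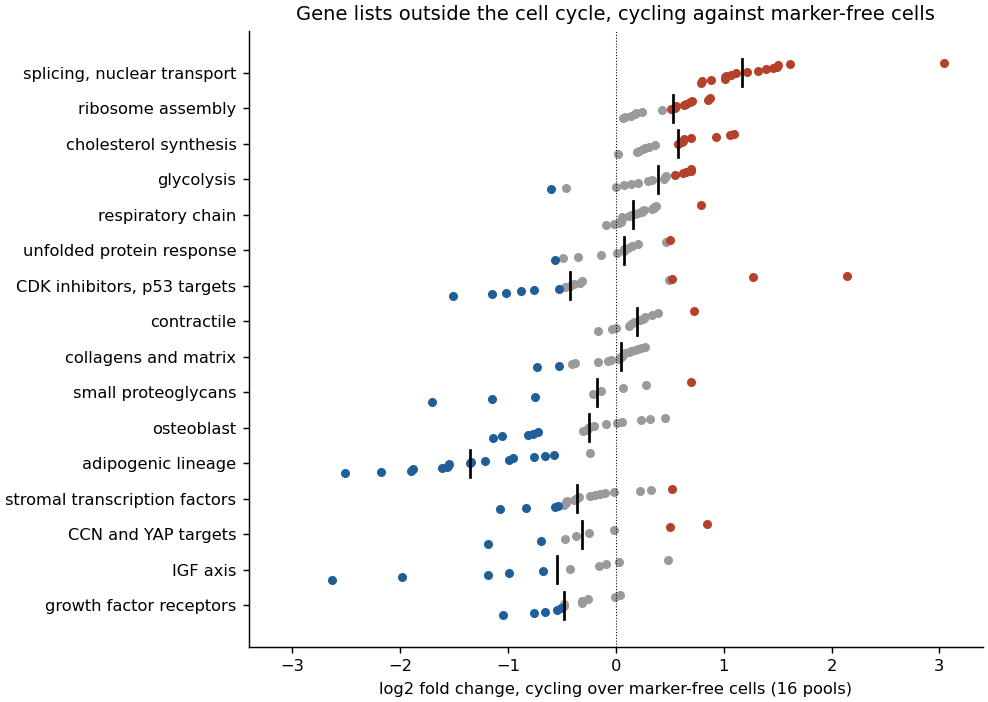
log2 fold change of cycling over marker-free cells for the tested genes of 16 lists outside the cell cycle (red, called higher; blue, called lower; grey, not called; black line, median of the list). Splicing and nuclear transport lies wholly to the right with a median of 1.17, and the adipogenic lineage lies to the left with a median of -1.35.

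Outside the cycle lists and with a mean of at least 50 CPM, 4 of the 10 largest rises were *Ezh2*, *Hat1*, *Dnajc9* and *Selenoh*. *Ezh2*, the methyltransferase of Polycomb complex, ran from 69.3 to 136 CPM in cycling and from 14.6 to 25.8 in marker-free cells (2.44 ± 0.05). *Hat1*, which acetylates new histone H4 (2.38 ± 0.05), *Dnajc9*, a histone chaperone (2.38 ± 0.07), and *Selenoh* (2.39 ± 0.07) also had no overlap between the pools. Each kept a log2 fold change of at least 2.34 in stroma-marked cells of matched depth. These genes are missing from the cycle lists used here, but the rule chose cells by the cycle, so their rises are also a description.

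The other 6 of the 10 rises and some large falls were genes of blood cells. *Elane* (3.99), *Prtn3* (3.49), *S100a9* (2.76), *Ngp* (2.74), *S100a8* (2.65) and *Chil3* (2.27), all of granulocytes and their precursors, were called higher. In stroma-marked cells *Elane* and *Prtn3* were too low to be tested, and *S100a9* (-0.26), *Ngp* (0.10), *S100a8* (-0.12) and *Chil3* (-0.25) were not called. Of the 8 leukocyte genes 6 were higher in all cycling cells. The immunoglobulin genes *Igkc* (-5.71), *Iglc1* (-4.80), *Ighm* (-4.77), *Iglc2* (-4.02) and *Jchain* (-3.43) were lower, beside 193 marker-free and 7 cycling cells with at least 3 B cell markers, and *Igkc* was at -3.99 in stroma-marked cells. Single pools moved *Iglc1* by over 1.5 times in fold, between -5.80 without pool 7 and -4.20 without pool 8 (also without pool 6), and *Iglc2* between -4.97 without pool 18 and -3.18 without pool 12 (also without pool 4 or 6). Of the genes called in all cells, stroma-marked cells kept 1263 of 1486 higher and 1346 of 1627 lower.

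Cycling droplets were deeper and had a larger share of ribosomal protein transcripts. Pool means were 20813 UMIs in cycling and 12568 in marker-free cells, given as a description because a rule on detected markers favours deep droplets. Ribosomal protein genes took 22.9% ± 3.00 and 18.2% ± 3.58 of UMIs (SD, n = 16), a difference of 4.75 points in 16 of 16 pools (sign-flip permutation test, two-sided, exact p = 3.05e-05, the smallest that 16 pools allow). It was 3.65 points in stroma-marked cells (15 of 16 pools, exact p = 0.000244) and 2.41 points in cells of 10000 to 20000 UMIs (11 of 13 pools with enough cells, exact p = 0.0312). The mitochondrial share, which the rule capped, was 3.64% in both kinds of cell and is given as a description. The difference was 0.00696 points in all cells, -0.29 points in stroma-marked cells (lower in 12 of 16 pools) and 0.495 points at 10000 to 20000 UMIs (higher in 12 of 13 pools), so its direction depended on the cells compared.

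Cycling cells varied in phase. The S phase list took a median of 33.5% of the UMIs of both phase lists in a cell, with an interquartile range of 19.9% to 52.2%, and the pool medians ran from 20.5% to 51.4%. In 511 cells (27.8%) S phase genes took the larger share. These shares describe the cells that the rule chose, not all dividing cells. The markers of the rule had higher CPM on the G2/M side defined below, although *Top2a* and *Cdk1* were detected in more cells of the S side. Of the 340 cells with 3 markers, which the rule left out, 89 held at least the median S phase level of cycling cells. How far the rule sets these shares was not tested. To compare phases, the cycling cells of each pool were cut at the pool median into an S side and a G2/M side of 912 cells each, and 411 cells (22.4%) lay within 5 points of the cut. Per 10000 UMIs, the S side held 38.6 S phase and 38.1 G2/M UMIs, and the G2/M side 20.9 and 71.2.

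The 2 sides were close in depth and in the share of leukocyte-marked cells, although single blood cell genes differed (below). Droplets with *Xist* and Y chromosome transcripts together made up 1.21% of the S side and 0.439% of the G2/M side. Median UMIs were 21531.5 on the S side and 20129.5 on the G2/M side, and 18.8% and 15.8% of cells carried at least 3 leukocyte genes. The CPM of the 6 markers was higher on the G2/M side, given as a description, with *Cenpf* at 72.7 and 318 CPM, *Ccna2* at 121 and 240, *Birc5* at 291 and 488, *Cdk1* at 240 and 364, *Mki67* at 169 and 247 and *Top2a* at 312 and 394. By ratio, *Cenpf* differed most and *Top2a* least. In shares of cells with a UMI, *Top2a* (93.1% on the S side and 86.3% on the G2/M side) and *Cdk1* (92.3% and 88.8%) went the other way.

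The split itself rests on phase genes, so the cycle lists are also a description. The median log2 fold changes of the S side over the G2/M side were 1.05 for licensing, 1.00 for the replication fork, 0.67 for nucleotides and 0.86 for repair genes. They were negative, hence higher on the G2/M side, for the spindle (-1.02), mitotic kinases (-1.22) and the kinetochore (-0.43). *Cdc6* had 38.1 CPM ± 16.2 on the S side and 5.01 ± 6.03 on the G2/M side, and the cyclin *Ccne2*, which drives entry into S phase, 47.6 ± 18.1 and 10.7 ± 8.87. *Cdc20*, which triggers anaphase, had 54.0 ± 20.1 and 270 ± 72.7, and *Tpx2* 110 ± 31.2 and 257 ± 55.0.

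Outside the cycle lists, the sides were compared with edgeR in 15 pools with at least 20 cells a side (898 cells a side, 8042 genes tested), with the pool as a block. Pool 13 was left out for too few cells. The call was met by 261 genes higher on the S side (3.25%) and 248 lower (3.08%), and in stroma-marked cells (13 pools) by 3.24% and 3.32%. At an adjusted p of at most 0.05 with no limit on size, 1594 genes (19.8%) differed, and 563 did without the block for the pool.

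Outside the cycle lists and with a mean of at least 50 CPM, the gene lowest on the S side was *Arl6ip1*. *Arl6ip1*, an endoplasmic reticulum shaping protein, ran from 90.8 to 256 CPM (median 173) on the S side and from 274 to 872 (median 525) on the G2/M side. The pools did not overlap, as for 0.410% of all genes in this direction and 0.00% in the other (-1.64 ± 0.08, edgeR adjusted p = 5.44e-13). *Trim59* (-1.30 ± 0.11) and *Jpt1* (-0.97 ± 0.06) also had no overlap, and *Knstrn*, a spindle adaptor (-1.31 ± 0.09) and *Depdc1a* (-1.43) were lower. *Kpna2* was 18.2 CPM ± 6.26 on the S side and 47.6 ± 13.8 on the G2/M side (-1.38 ± 0.12). These genes are missing from the cycle lists used here, but the split rests on phase genes, so their values are also a description. How far the split sets them was not tested.

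Within the same limits, the 10 largest calls higher on the S side included the following genes, while the split itself used S phase genes. *Esco2*, which acetylates cohesin (1.06 ± 0.15), *Fam111a*, a protease at replication forks (0.76 ± 0.11), *Hat1* (0.75 ± 0.09), *Rfc1*, the clamp loader subunit (0.75), and *Rpa1*, a single-strand DNA binder (0.65), met the call. *Hat1* had 133 CPM ± 24.1 on the S side and 79.6 ± 26.3 on the G2/M side, and it was higher in 15 of 15 pools. The blood cell genes *Igkc* (2.39), *Elane* (1.69) and *Ctsg* (1.56) were also called higher on the S side. *Igkc* passed the count filter in 10 of the 15 fits that left out a pool. The call of *Elane* was lost without any of pools 2, 3, 4, 9, 12, 14 and 18 (1.35 to 2.08 over all single pools left out), and that of *Ctsg* without any of pools 2, 7, 8, 9, 11, 12, 14 and 18 (1.25 to 1.94). Neither was high enough to be tested in stroma-marked cells.

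Lineage genes were present on both sides, and some of them differed. *Adipoq* ran from 32.4 to 429 CPM (median 134) on the S side and from 4.99 to 212 (median 82.1) on the G2/M side, with wide overlap, and it was higher on the S side in 11 of 15 pools (0.95 ± 0.23, edgeR adjusted p = 0.00382). *Lepr* was higher in 13 of 15 pools (0.72 ± 0.17). Of 16 adipogenic genes tested, 3 were higher and 0 lower, beside 3.25% of all genes. In stroma-marked cells 6 were higher, beside 3.24% of all genes. At 10000 to 20000 UMIs 6 of 16 were higher, where 122 of all 5361 tested genes were. The third of the main calls, *Cxcl12* (0.53), lost its call without any of pools 1, 2, 4, 9, 14, 17 and 18. *Ogn*, the proteoglycan, was higher as well (0.67 ± 0.13, 13 of 15 pools), but not called at 10000 to 20000 UMIs (0.58).

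Some osteoblast genes were lower on the S side. Of 14 genes tested, 0 were higher and 2 lower on the S side, beside 3.08% of all genes. In stroma-marked cells 4 were lower, beside 3.32% of all genes. *Sp7*, the osteoblast factor osterix, ran from 36.5 to 141 CPM (median 76.8) on the S side and from 48.8 to 177 (median 123) on the G2/M side. It was lower on the S side in 15 of 15 pools, although the ranges overlapped (-0.59 ± 0.09, edgeR adjusted p = 2.23e-05). *Sp7* was not called at 10000 to 20000 UMIs (-0.41), where 0 of 13 osteoblast genes were. The other, *Smpd3*, lost its call without any of pools 3, 4, 8, 9 and 18 (-0.61 to -0.44). *Runx2* (-0.38) and *Alpl* (-0.41) had smaller values that did not reach the call.

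Of the other lists, the receptors *Fgfrl1* (0.69 ± 0.14) and *Fgfr3* (-0.64 ± 0.18) were called in opposite directions, and the inhibitor *Cdkn2d* was lower on the S side (-0.71 ± 0.12). None of the 3 was called at 10000 to 20000 UMIs. Ribosome assembly counted 2 higher of 15, of which *Nop56* was at 0.55, and 0 were called in stroma-marked cells or at 10000 to 20000 UMIs. The 16 glycolysis genes tested counted 0 calls, with a median of -0.22, and *Ldha* was at -0.24. The 19 collagen and matrix genes tested also counted 0, with *Col1a1* at 2349.8 CPM ± 791 on the S side and 2942 ± 1186 on the G2/M side (-0.31).

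**Figure D5:**
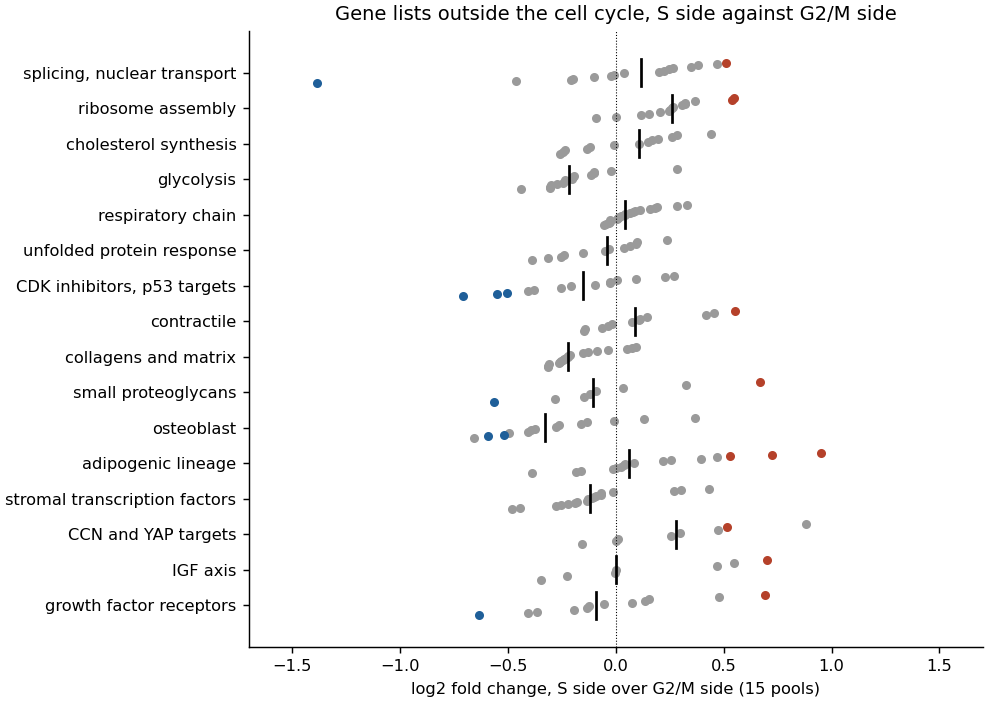
log2 fold change of the S side over the G2/M side for the tested genes of the same 16 lists (15 pools; red, called higher on the S side; blue, called lower; grey, not called; black line, median of the list). The single largest value is *Kpna2* at -1.38 in splicing and nuclear transport, and *Adipoq* leads the adipogenic lineage at 0.95.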

How the data were processed

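The authors aligned and counted reads with Cell Ranger 5.0.0 against GRCm38 (mm10) and deposited, for each sample, raw UMI counts per gene and barcode for barcodes called as cells. The annotation release is not given in the sources used here. The deposited counts precede the doublet removal and the assignment of cells to mice in the study, and neither was repeated.

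The members and gene lists were chosen with earlier results of these data known. UMI counts of 1 run were summed per pool and kind of cell and fitted with edgeR 4.0.16 (R 4.3.3) with the quasi-likelihood test, TMM scaling, filterByExpr, the pool as a block and Benjamini-Hochberg adjustment. SE is the absolute log2 fold change over the square root of F. CPM uses TMM-scaled totals, except for the 6 markers. Deviations of the 2 kinds of cell from the same pool correlated at 0.258 or more in each of 16 pairs (median 0.414), and those of the 2 sides at 0.151 or more in 15 pairs (median 0.408). On simulated data, 200 genes were changed by a log2 fold change of 1 and counted by adjusted p alone. Of these, 96.0% were recovered for cycling cells (11637 genes) and 92.0% for the sides (7931 genes). False genes made up 3.03% and 3.66% of those counted, and smaller changes were not simulated. The changed genes were split evenly between rises and falls. In the data, 60.2% of genes passed the adjusted p between cycling and marker-free cells. The simulation therefore cannot show the error that scaling brings where so many genes differ. Named genes were the 6 markers, the called list members with the largest changes, the 10 largest called changes each way with a mean of at least 50 CPM outside the cycle lists, and *Tpx2*. Genes named without a call, and stroma-marked cells, were chosen after the data were seen. Intervals cover counting error only, and p-values the spread between pools. Alternatives were DESeq2 1.42.0, RLE scaling, library totals, no filter, no block, the second run, other marker and depth limits, and each pool left out.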

Additional observations from a re-analysis of the deposited data

How the results depend on the processing

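Between cycling and marker-free cells, 7086 genes passed an adjusted p of 0.05, and they numbered 6754 in stroma-marked cells, 4346 at 10000 to 20000 UMIs and 3539 in stroma-marked cells of that depth, where 915 were lower by at least 0.5. They numbered 6935 with DESeq2, 7077 with RLE factors and 6654 to 7074 without single pools (higher by at least 0.5 in 1458 to 1565, lower in 1421 to 1661). Leaving the replicate block for the pool out gave 5697, and for the S and G2/M sides it gave 563 genes where the block gave 1594. For the sides, 10000 to 20000 UMIs (7 pools with enough cells) gave 228 genes (122 higher and 100 lower by at least 0.5), no filter on low counts gave 448 higher and 336 lower by at least 0.5, and leaving out single pools gave 1371 to 1575 (236 to 291 higher, 228 to 272 lower). The causes were not tested. The cycling share was 8.63% to 9.83% without single pools and 4.92% in stroma-marked cells thinned to 5000 UMIs. The UMI ratio was 1.10 at 10000 to 20000 UMIs, where the window bounds it. The mitochondrial difference was 0.495 points at 10000 to 20000 UMIs, -0.28 in cells with *Col1a2* and *Col3a1* and no *Ptprc* UMIs, and -0.29 in stroma-marked cells. The correlation of the thinned share with the share of *Ibsp*-high cells was 0.0596 without pool 2, and the other correlations there were 0.331, 0.0268 and -0.0099.

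Of the genes examined by name, signs turned for 11. In cells with *Col1a2* and *Col3a1* and no *Ptprc* UMIs, *Camp* was at -0.18, *Chil3* at -0.067 and *Cd68* at 0.062. In stroma-marked cells, *Camp* was at -0.15, *Chil3* at -0.25, *Mcpt8* at -0.0035, *S100a8* at -0.12 and *S100a9* at -0.26. At 10000 to 20000 UMIs, *Col1a1* was at -0.10, *Col1a2* at -0.14 and *Lum* at -0.66. In stroma-marked cells of that depth, *Kcnk2* was at 0.11, *Loxl1* at 0.00018, *Lum* at -0.50 and *S100a8* at -0.13. Thin pools limit the depth behind the sides, where pool 13 gave too few cells.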

Other observations

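Among genes the study links to *Tpx2* in its network, 10 of 11 were called higher in cycling cells, which is a description because most are mitotic genes. The exception was *Papss1*, an enzyme of sulfation, at a log2 fold change of 0.36. The unfolded protein response counted 1 higher and 1 lower of 12 genes, with *Ddit3* at -0.57 and *Hsp90b1* at 0.50, a call that *Hsp90b1* lost without any of pools 3, 6, 7, 12, 13 and 18.

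Other cell types gave small lists. Of 4 endothelial genes 0 were called (edgeR), and *Pecam1* was at 0.36. Of 3 osteoclast genes *Atp6v0d2* was lower (-1.63) and was not tested in stroma-marked cells. The T cell genes *Nkg7* (3.22) and *Trbc2* (2.51) and the megakaryocyte gene *Itga2b* (1.56) were higher in cycling cells and were not tested in stroma-marked cells. *Nkg7* passed the count filter in 11 and *Trbc2* in 10 of the 16 fits that left out a pool. Of 7 macrophage genes only *Cd68* was called, lower at -0.86, and it was at -0.17 in stroma-marked cells.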
